A study of Sus scrofa with 95 samples.

Results

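The normal kidney cortex of young pigs was compared with 4 other organs of the same animals. The members were the 8 control kidney libraries among the 95 libraries of the series, and they were set against 8 control libraries each of heart (left ventricle), terminal ileum, liver and lung (right lower lobe). All 40 libraries came from the same 8 animals, infant swine of 5 to 10 kg that served as anesthesia controls and received neither cardiopulmonary bypass nor drug. Animals 1, 7, 10 and 26 were male, and animals 4, 13, 14 and 15 were female. The labels give no breed and no age in days. Kidney and ileum were taken just before euthanasia with pentobarbital, and liver, heart and lung just after it, so time of harvest cannot be told apart from organ in those 3 comparisons. All heart libraries bear batch label 2 and the others batch label 1, so batch and organ cannot be told apart in kidney against heart. The rest of the series, animals with bypass and circulatory arrest with or without linrodostat, was not used.

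The cortex of the kidney holds the glomeruli, where podocytes and capillaries filter plasma, and most of the tubule that follows. The proximal tubule takes back sugar, amino acids, phosphate and filtered protein and secretes organic anions and cations. The thick ascending limb and the distal convoluted tubule take back salt, calcium and magnesium, and the collecting duct sets the final water, salt and acid content of the urine through its principal and intercalated cells. Each segment runs on its own set of transporters, which serve as its markers. In libraries of whole cortex, fewer cells of a type and less RNA per cell cannot be told apart.

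Poly(A) RNA was measured in expected counts, which are estimated read counts per gene. Total counts of a kidney library, in units of 1e6, were 34.2 to 42.7 (median 36.6), against medians of 25.6 in heart, 38.9 in ileum, 40.6 in liver and 35.5 in lung. Levels are given in CPM, counts per 1e6 counts after TMM scaling. They are not scaled for gene length, so levels are compared between organs and not between genes. Log2 CPM values correlated between kidneys at 0.934 to 0.98 (median of 0.967, over genes), and with the other organs at medians of 0.752 to 0.782.

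The 3 genes that mark the organ were high in every kidney and near 0 elsewhere. UMOD, which encodes uromodulin, the most abundant protein of normal urine, is made in the thick ascending limb. Its level was 2048 CPM in the lowest kidney, 4703 at the median and 7331 in the highest, and 10.2 CPM in the highest of 32 other libraries, the liver of animal 26. SLC22A8, an organic anion transporter of the proximal tubule, ran from 220.3 to 1471 CPM with a median of 1152, and reached 2.23 CPM in that same liver. SLC12A1, the salt cotransporter that loop diuretics block, ran from 343 to 1566 CPM with a median of 549, and its highest other library was at 1.20 CPM. For each of the 3 genes the lowest kidney lay above every library of the other organs, so the label of the 8 kidney libraries held against its markers.

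The markers of the other organs were low in the kidneys. Summed over its measured genes, a heart muscle list lay at 9.83 to 64.0 CPM in the kidneys and at 128215 to 162912 in hearts. A list of gut genes lay at 101.2 to 175.4 CPM in kidneys and at 3989 to 10502 in ileum, with CDX2, FABP2 and SI at 0 counts in all 8 kidneys. A hepatocyte list lay at 126 to 342 CPM in kidneys and at 171626 to 266220 in livers, and a lung epithelium list at 12.9 to 29.9 and at 6048 to 10557 in lungs. Of the adrenal cortex list, 2 of 9 genes passed the count filter and neither was called in any comparison. The highest kidney sum of the hepatocyte list belonged to animal 13, where FGB, a fibrinogen chain, was at 161.8 CPM. That list lay at 46.2 to 92.7 CPM in hearts, 23.4 to 95.3 in lungs and 270 to 1383 in ileum. Of its 10 tested genes, 3, FGB among them, were at least 4-fold higher in both kidney and liver than in the other organs. Of all genes tested, 1.3% were.

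The 4 comparisons share the 8 kidney libraries. A gene was called where the adjusted p (edgeR quasi-likelihood test, Benjamini-Hochberg over 18305 genes) was under 0.05 and the fold at least 2. Against heart, 4509 genes were higher in kidney (24.6%) and 2758 lower (15.1%). Against ileum, 4177 were higher (22.8%) and 3594 lower (19.6%), and against liver 4511 were higher (24.6%) and 3325 lower (18.2%). Against lung, 3190 were higher (17.4%) and 3520 lower (19.2%).

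Kidney was higher than each of the 4 organs in 733 genes (4%) and lower than each in 81 genes (0.443%). Of the 733, 442 (2.41% of the genes tested) were at least 4-fold higher than in the nearest organ and are called kidney-enriched here. The smallest of their 4 log2 differences ran from 2.00 to 14.69 with a median of 3.39, and the next gene outside stood at 1.99. All 8 kidneys lay above all 32 other libraries in 544 of the genes tested (2.97%), 354 of them kidney-enriched. Of the 442 genes, 339 had a symbol and 103 had an ID only. Over all genes tested, the median of the smallest log2 difference was -0.90, since a gene needs only 1 organ above the kidney to fall under 0.

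A gene could also stand out in kidney together with 1 other organ, at least 4-fold above each of the remaining 3. This held for 238 genes with liver (1.3%), 164 with lung (0.896%), 144 with ileum (0.787%) and 81 with heart (0.443%). A gene can be counted both in such a pair and as higher than each organ, where kidney also exceeded its partner.

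The plot of segment genes by library shows each of these values.

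**Figure D1:**
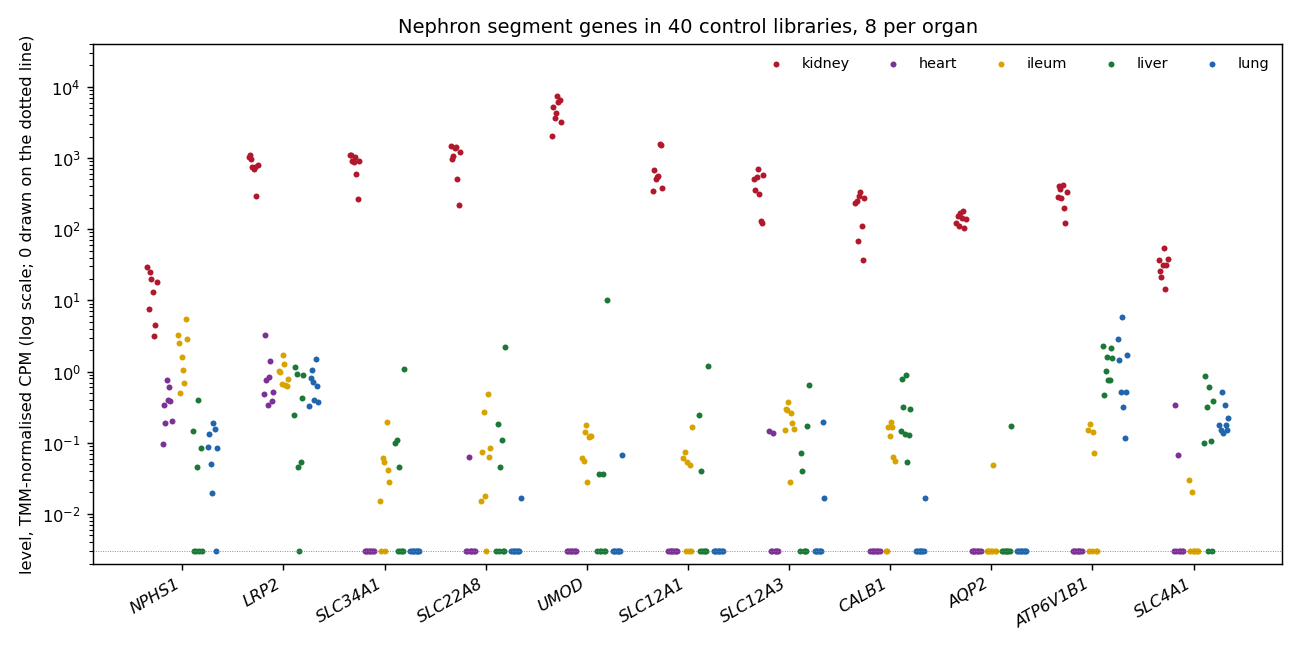
Levels (CPM, log scale) of segment genes in each control library of kidney, heart, ileum, liver and lung, with 1 point per library and libraries at 0 drawn on the zero line. UMOD, SLC22A8 and SLC12A1 lie between 220.3 and 7331 CPM in all 8 kidneys and at 10.2 CPM or less in every other library.

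Transcripts of mitochondrial DNA and a few nuclear genes took the largest shares of kidney counts. COX1, a subunit of cytochrome oxidase, took 3.38% of counts on average, COX3 1.70% and ATP6 1.64%. The nuclear gene with the largest share was GPX3, the secreted glutathione peroxidase that the kidney supplies to plasma, with 1.19% (0.358 to 1.75%). UMOD took 0.637% (0.282 to 0.927%), behind the nuclear genes FTL (ferritin light chain, 0.876%) and EEF1A1 (a translation factor, 0.642%). GPX3 ran from 2559 to 13230 CPM with a median of 9885, and its highest other library was at 645 CPM. It stood 4.66 ± 0.35 log2 units above lung, the nearest organ (SE, adjusted p = 4.17e-12, edgeR).

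Some abundant kidney-enriched genes had a nearest organ close to kidney. ATP1B1, the beta subunit of the sodium pump, averaged 1159 CPM and was 2.31 ± 0.21 log2 units above ileum. CDH16, a cadherin of kidney epithelium, averaged 975 CPM and was 2.71 ± 0.48 above lung. SOD3 (extracellular superoxide dismutase) and CGNL1 (a tight junction protein) stood 2.09 ± 0.23 above lung and 2.11 ± 0.16 above liver. SOD3 lost the call without animal 13 (1.945) and CGNL1 without animal 10 (1.967), both by falling just under 4-fold.

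Of 16 podocyte genes tested, 4 were kidney-enriched and 6 were higher than in each organ, with a median smallest log2 difference of 0.58. NPHS1, the slit protein nephrin, ran from 3.20 to 29.7 CPM with a median of 15.45. The kidneys of animals 14 and 15 were lowest, at 3.20 and 4.57 CPM, and lay under the highest ileum library (5.42). Nephrin transcripts stood 2.78 ± 0.57 log2 units above ileum (adjusted p = 0.000826, edgeR). WT1, a transcription factor of podocytes, was 2.98 ± 0.68 above heart, and PLA2R1, a podocyte receptor, 2.08 ± 0.17 above lung.

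Other podocyte genes were shared with lung. TCF21, a mesenchymal and podocyte factor, averaged 112 CPM in kidney and 89.0 in lung. COL4A3 and COL4A4, which build the basement membrane of glomerulus and alveolus, averaged 84.0 and 55.7 CPM in kidney and 67.4 and 39.9 in lung, and at most 3.68 in the other 3 organs. None of the 3 differed from lung by 2-fold. SYNPO and CLIC5, proteins of the podocyte cytoskeleton that other tissues also use, were 3.99 ± 0.24 and 3.02 ± 0.25 log2 units lower in kidney than in heart.

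Of 11 genes of glomerular endothelium, mesangium and juxtaglomerular cells, 2 were higher than in each organ, with a median of -0.78 over the list. PLAT, tissue plasminogen activator, was 1.16 ± 0.25 log2 units above heart.

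The endocytic apparatus of the proximal tubule, which takes filtered protein back, had 5 of 8 tested genes kidney-enriched and 6 higher than in each organ (median 2.29). LRP2, the receptor megalin, ran from 289 to 1106 CPM with a median of 784, and no other library passed 3.25 CPM. Megalin stood 9.62 ± 0.51 log2 units above ileum (adjusted p = 2.38e-15, edgeR). The partners of megalin were not as far from ileum. CUBN, the receptor cubilin, ran from 223 to 971 CPM in kidney and averaged 201 in ileum, with less than 1 CPM on average in heart, liver and lung. Its log2 difference from ileum was 1.89 ± 0.33 and one ileum library reached 515.5 CPM. AMN, which carries cubilin to the membrane, was 2.22 ± 0.38 above ileum. DAB2, their adaptor, was 2.36 ± 0.23 above lung, and CLCN5, the endosomal chloride exchanger of Dent disease, 3.24 ± 0.31 above ileum.

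Of 29 genes of proximal solute reabsorption, 9 were kidney-enriched and 14 higher than in each organ, and 8 were shared with ileum (median 1.12). SLC34A1, the main phosphate transporter of the proximal tubule, ran from 269.7 to 1111 CPM with a median of 903, and no other library passed 1.07. Against liver the log2 difference was 12.62 ± 0.69 (adjusted p = 1.34e-10, edgeR). SLC6A18, a neutral amino acid transporter, ran from 181 to 631 CPM and was 11.45 ± 0.54 above ileum. SLC5A2, the glucose transporter SGLT2 that gliflozins block, ran from 23 to 190 CPM with a median of 170.3, and was 7.43 ± 0.52 above lung. All 8 kidneys lay above every other library in these 3 genes, and the lowest value in each belonged to animal 15.

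The transporters shared with ileum are those that both epithelia use. SLC5A12, a lactate transporter, averaged 324 CPM in kidney and 276 in ileum. SLC13A1, a sulfate transporter, averaged 135 CPM in kidney and 90.8 in ileum, and SLC6A19, the amino acid transporter of Hartnup disease, 80.2 in kidney and 167 in ileum. SLC7A9, which with SLC3A1 moves cystine, averaged 29.8 CPM in kidney and 52.9 in ileum. SLC3A1 itself was 1.12 ± 0.31 higher in kidney than in ileum. SLC5A1, the intestinal glucose transporter SGLT1, was 4.69 ± 0.41 lower in kidney than in ileum. AQP1, the water channel of the proximal tubule, averaged 947 CPM and was 1.75 ± 0.26 above heart.

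Of 17 genes of organic ion secretion and urate transport, 7 were kidney-enriched, 8 were higher than in each organ and 5 were shared with liver (median 0.98). SLC22A12, the urate exchanger URAT1, ran from 91.9 to 338 CPM and no other library passed 0.515. SLC22A6, the anion transporter OAT1, was 9.21 ± 0.57 above heart. SLC22A2, the cation transporter OCT2, was 8.13 ± 0.48 above ileum. SLC47A2, which exports cations to urine, averaged 232 CPM and was 7.95 ± 0.45 above heart. Other members of the list had their higher level in liver. ABCC2, an export pump, averaged 105 CPM in kidney and 346 in liver. SLC22A7 averaged 1.58 CPM in kidney, 8.92 ± 0.51 log2 units under liver.

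The brush border peptidases were shared with ileum for the most part. Of 11 tested, 10 were higher in kidney than in heart, 10 than in lung and 8 than in liver. Against ileum 3 were higher and 5 lower. Over all genes tested, 24.6% were higher than in heart, 17.4% than in lung and 24.6% than in liver. Against ileum 22.8% were higher and 19.6% lower, so 3 of 11 higher does not set the list apart. The share called shared with ileum was 0.787%. In all, 1 was higher than in each organ (MME, neprilysin, 1.93 ± 0.36 above ileum) and 7 were shared with ileum (median -1.12). The number kidney-enriched was 0 by edgeR, at an unadjusted p under 0.05, by DESeq2 and by limma-voom, and 1 without the kidneys of animals 14 and 15, against 2.41% of all genes tested. ANPEP, aminopeptidase N, averaged 527.5 CPM in kidney and 4241 in ileum. DPEP1 averaged 154 in kidney and 212 in ileum, and ENPEP 476 and 716. Summed, the list lay at 998 to 3213 CPM in kidneys and at 3013 to 15196 in ileum.

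Proximal metabolism was for the most part shared with liver: 16 of 27 tested genes were, 2 were kidney-enriched and 4 were higher than in each organ (median -0.76). The enriched genes were MIOX, which starts the breakdown of inositol, and DAO, which oxidises D-amino acids. MIOX ran from 286 to 1551 CPM with a median of 475 and was 2.98 ± 0.36 above liver. DAO was 2.07 ± 0.31 above liver. PCK1, the key enzyme of glucose synthesis, ran from 1395 to 6161 CPM with a median of 2046, and averaged 2961 in kidney and 4232 in liver. Its log2 difference from liver was -0.17 ± 0.53, smaller than its standard error. HPD and GLDC, of tyrosine and glycine breakdown, were 7.44 ± 0.64 and 7.92 ± 0.58 log2 units lower in kidney than in liver.

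The thick ascending limb list had 10 of 17 tested genes kidney-enriched and 11 higher than in each organ (median 4.04). UMOD lies on chromosome 3, 25473048 to 25492286 in RefSeq's Sscrofa11.1 annotation. It had 0 counts in the 8 hearts, which makes kidney at least 227000-fold higher against a floor of 3 counts over the group. KCNJ1, the potassium channel ROMK, ran from 49.0 to 74.4 CPM and was 8.44 ± 0.45 above ileum. CLDN16, a claudin of the magnesium pathway, averaged 15.9 CPM with 2 counts in all livers and 0 in the other organs, and its partner CLDN19 was 8.72 ± 0.54 above liver. CASR, the calcium-sensing receptor, was 4.04 ± 0.46 above ileum, and EGF, the growth factor that reaches urine from this segment, 7.70 ± 0.48 above heart.

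Of 17 genes of the distal convoluted and connecting tubule, 8 were kidney-enriched and 9 higher than in each organ (median 1.28). SLC12A3, the cotransporter that thiazides block, ran from 122.5 to 692 CPM with a median of 431, and no other library passed 0.643. The gene stood 10.77 ± 0.55 log2 units above ileum (adjusted p = 1.3e-15, edgeR). CALB1, calbindin, ran from 37.2 to 333 CPM and was 9.09 ± 0.44 above liver. KCNJ10, a basolateral potassium channel, was 4.93 ± 0.46 and TRPV5, a calcium channel, 3.22 ± 0.44 above ileum. WNK4, a kinase that regulates the cotransporter, was 2.98 ± 0.26 above lung. PVALB, parvalbumin, averaged 8.34 CPM with 1 count in ileum and 0 in heart, liver and lung. SLC8A1, the sodium and calcium exchanger, averaged 63.8 CPM and was 3.69 ± 0.27 lower than in heart.

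Of 14 principal cell genes, 5 were kidney-enriched, 8 were higher than in each organ and 4 were shared with lung (median 1.66). AQP2, the water channel that vasopressin regulates, ran from 104 to 179 CPM with a median of 142, and no other library passed 0.172. Its receptor AVPR2 was 3.54 ± 0.49 above heart. HSD11B2, which shields the mineralocorticoid receptor from cortisol, was 4.21 ± 0.39 above ileum. The genes shared with lung included subunits of the epithelial sodium channel. SCNN1A averaged 165 CPM in kidney and 87.0 in lung, and SCNN1G 77.9 and 20.4. AQP4 averaged 0.255 CPM and was 6.76 ± 0.50 lower than in lung.

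Intercalated cells, which secrete acid or base, had 13 of 18 genes kidney-enriched and 15 higher than in each organ (median 4.46). RHCG, an ammonia channel, ran from 16.3 to 120 CPM with a median of 74.2, and no other library passed 0.214. Its log2 difference from ileum was 10.70 ± 0.53 (adjusted p = 2.25e-15, edgeR). SLC26A7, an anion exchanger of these cells, was 9.15 ± 0.40 above ileum. ATP6V1B1, a proton pump subunit, ran from 122 to 424 CPM and was 7.93 ± 0.61 above liver. FOXI1, the factor that specifies these cells, was 7.35 ± 0.52 above lung. SLC4A1, the chloride and bicarbonate exchanger of acid-secreting cells, averaged 31.7 CPM and was 6.94 ± 0.50 above liver. SLC26A4, pendrin of the base-secreting cells, was the most uneven of them, at 1.09 to 23.3 CPM, and was 3.47 ± 0.64 above liver.

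The plot of calls per list shows these groups side by side. Among all genes tested, 2.41% were kidney-enriched.

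**Figure D2:**
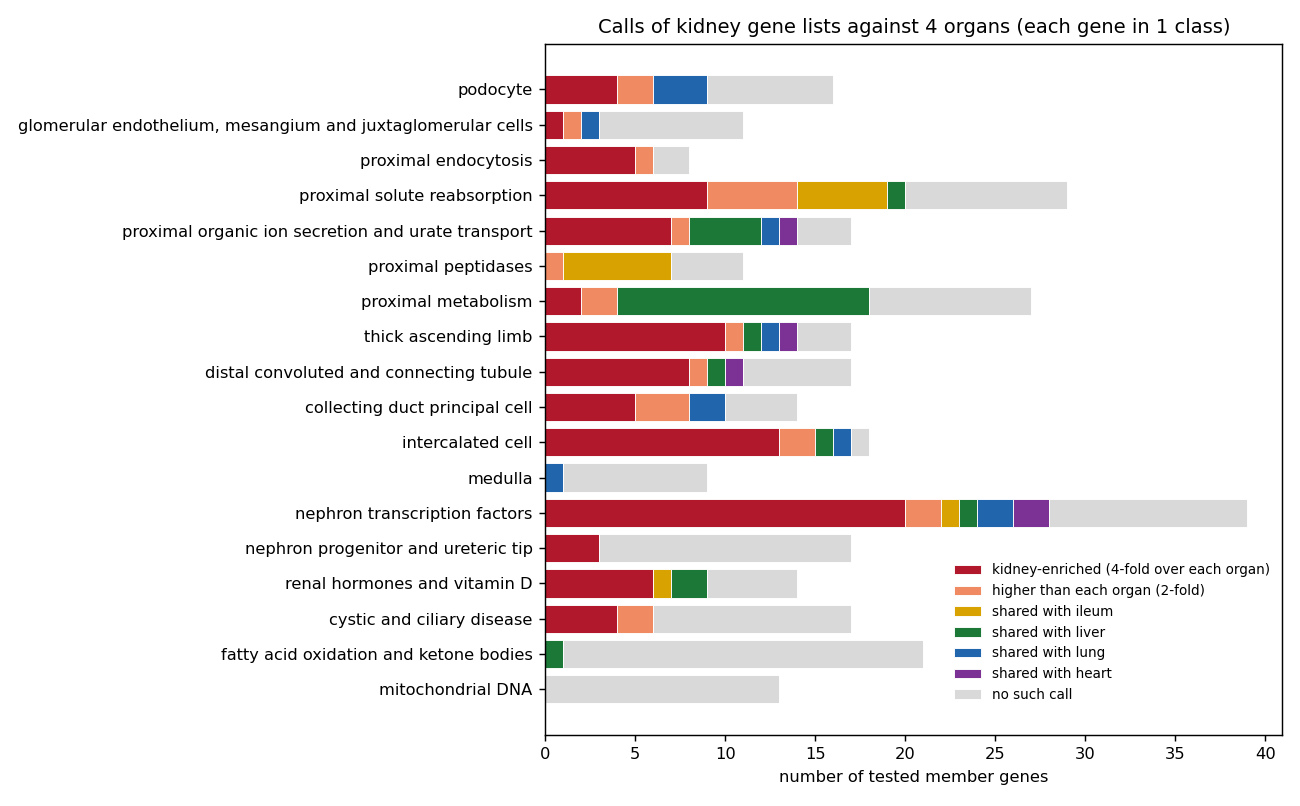
Number of tested genes of each kidney list (bars) that were kidney-enriched, higher than in each organ, shared with ileum, liver, lung or heart, or without such a call. Each gene is drawn once, in the first class of that order that it meets, so the shared parts can be smaller than the counts in the text. The enriched part is 13 of 18 for intercalated cells, 10 of 17 for the thick ascending limb and 2 of 27 for proximal metabolism.

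Of 14 genes of renal hormones and vitamin D, 6 were kidney-enriched (median 0.17). EGF is described above. KLK1, tissue kallikrein, ran from 60.2 to 488 CPM and was 7.70 ± 0.66 above ileum. PTH1R, the parathyroid hormone receptor, was 2.86 ± 0.24 above liver. CYP27B1, which activates vitamin D, ran from 3.02 to 44.3 CPM and was 2.63 ± 0.48 above lung. CYP24A1, which inactivates it, ran from 2.03 to 18.9 CPM. VDR, the receptor of the vitamin, averaged 110.4 CPM and was shared with ileum (74.0 CPM). EPO did not pass the count filter.

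Of 39 transcription factors of the nephron, 20 were kidney-enriched and 22 higher than in each organ (median 2.22). SIM1 ran from 34.1 to 68.5 CPM with a median of 39.4, and no other library passed 0.168. EMX2 ran from 16.9 to 24.9 CPM and no other library passed 0.0881. PAX2, an organiser of kidney development, was 4.15 ± 0.28 above liver. TFCP2L1, of the collecting duct, was 6.29 ± 0.44 above lung. HNF4A, a factor of proximal tubule, gut and liver alike, averaged 250.5 CPM in kidney, 222 in ileum and 557 in liver. Against liver it was 1.22 ± 0.30 lower. SIM1 and EMX2 varied little among kidneys, and each kept 8 kidneys above all other libraries.

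HOX genes, which set position along the body axis, were among the enriched factors. HOXD11 averaged 13.0 CPM, with 1 count in ileum, 2 in liver and 0 in heart and lung. HOXA11, its paralog in kidney development, was 9.31 ± 0.63 above heart. HOXA10 was 7.10 ± 0.52 and HOXD10 8.41 ± 0.69 above ileum, whereas HOXA9 and HOXC9 were closer to it, at 2.37 ± 0.41 and 2.22 ± 0.40. Runs were counted among tested genes with a RefSeq position (Sscrofa11.1), so other genes may lie within them. HOXD11, HOXD9, HOXD10, HOXD8, HOXD3 and HOXD1 form a run of 6 kidney-enriched genes on chromosome 15, from 81906654 to 81990026. HOXA11, HOXA10 and HOXA9 form one on chromosome 18, from 45388523 to 45411512. HOXC11, HOXC10 and HOXC9 form one on chromosome 5, from 19181580 to 19215859.

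**Figure D3:**
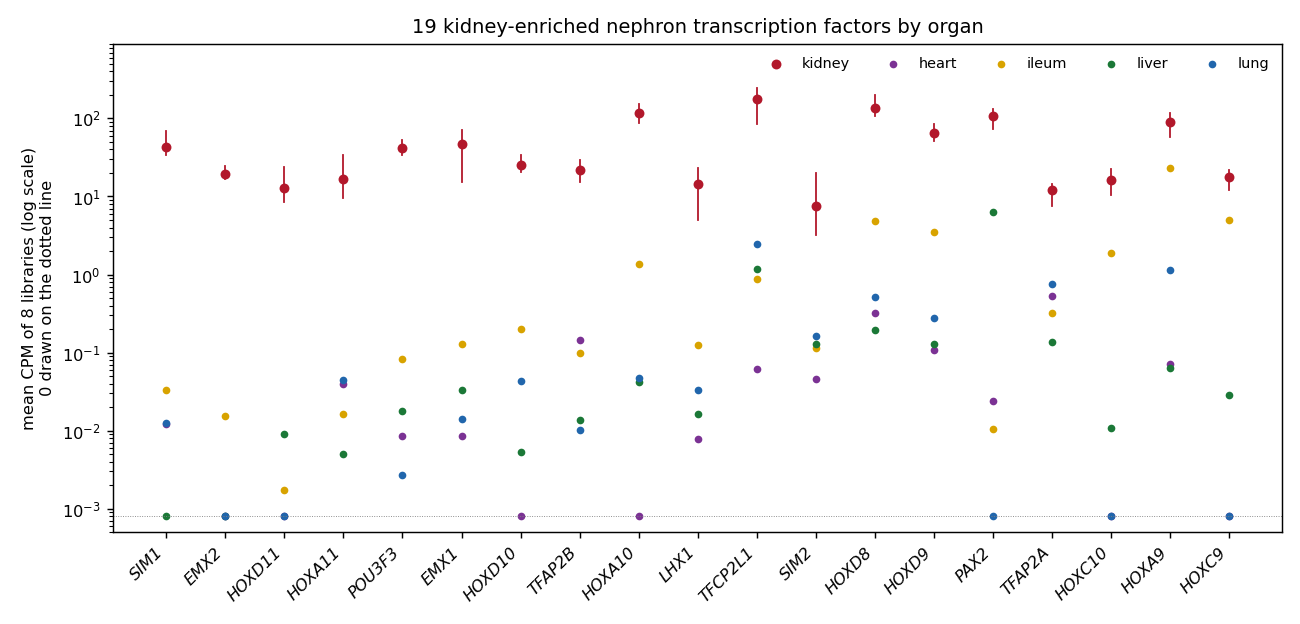
Mean level over 8 libraries (CPM, log scale) of 19 of the 20 kidney-enriched nephron transcription factors in each of the 5 organs, with vertical lines from the lowest to the highest kidney and means of 0 on the dotted line. SIM1 spans 34.1 to 68.5 CPM in kidney, and HOXA9 and HOXC9 have their nearest organ, ileum, closer to kidney than HOXA10 or HOXD10.

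Transporter genes also lie side by side, counting only tested genes with a position. SLC22A8 and SLC22A6 are neighbours on chromosome 2, from 8782030 to 8817124, and SLC22A12 and SLC22A11 on the same chromosome, from 7557822 to 7603567. SLC22A4 and SLC22A5, of carnitine transport, lie there from 134594843 to 134847575. UMOD lies beside PDILT (chromosome 3, from 25429591 to 25492286) and CLDN16 beside TMEM207 (chromosome 13, from 127808599 to 127871404). Of 326 kidney-enriched genes with a position, 58 (17.8%) had a kidney-enriched neighbour, and of all 13331 placed genes tested, 638 (4.79%) did. Tandem copies and reads shared between them were not resolved.

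Of 17 tested genes of the nephron progenitor and ureteric tip, 3 were kidney-enriched (median -1.24): FOXD1, a stromal factor, 7.91 ± 0.53 above ileum, LHX1, 6.81 ± 0.49 above ileum, and CRYM, 2.14 ± 0.39 above liver. SIX2 and CITED1, which define the progenitor itself, averaged 0.197 and 0.169 CPM. Of 17 genes of cystic and ciliary disease, 4 were kidney-enriched and 6 higher than in each organ (median 0.29). They include PKHD1, fibrocystin, 2.91 ± 0.48 above lung, and BICC1, 2.88 ± 0.16 above heart. PKD1 averaged 69.2 CPM and was 1.46 ± 0.22 lower than in heart.

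All 13 mitochondrial DNA genes were lower in kidney than in heart and higher than in lung, and 6 were higher than in ileum (median -2.11). They took 9.67 to 13.9% of kidney counts, against a median of 26.1% in heart and 2.71% in lung. In liver the median share was 4.79%, yet after TMM scaling 0 of the 13 genes were called higher or lower than in liver. The scaled sums were 66687 to 110569 CPM in kidney and 62121 to 106105 in liver, so that comparison depends on the scaling. Of 21 genes of fatty acid oxidation and ketone bodies, 12 were lower and 2 higher in kidney than in heart. Against liver 12 were lower and 2 higher, and 14 were higher than in lung and 9 than in ileum (median -2.35). Among all genes tested, 15.1% were lower and 24.6% higher in kidney than in heart, and 18.2% and 24.6% than in liver. The shares higher in kidney were 17.4% against lung and 22.8% against ileum. CPT1A, which admits fatty acids to mitochondria, averaged 186 CPM in kidney and 197 in liver and 40.1 in heart. HADHB, of the oxidation cycle, was 3.22 ± 0.12 lower than in heart.

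The 81 genes lower in kidney than in each organ included MYH14, a nonmuscle myosin. It ran from 27 to 81.8 CPM in kidney with a median of 28.2, and from 193 to 690 CPM elsewhere. Its smallest fall was 3.0 ± 0.25 log2 units, against heart (adjusted p = 3.37e-09, edgeR). LYVE1, a receptor of lymphatic vessels and resident macrophages, was at least 2.73 ± 0.28 log2 units lower in kidney than elsewhere. ITIH4, a plasma protein made in liver, was 2.87 ± 0.36 and RAMP1, part of the CGRP receptor, 1.94 ± 0.19 log2 units under the next organ. CDKN1A, the cell cycle inhibitor p21 that injured tubules raise, ran from 2.69 to 9.71 CPM and from 12.6 to 171 elsewhere, a fall of at least 2.15 ± 0.31. RRM2, of DNA synthesis, was 2.04 ± 0.49 under heart, a call lost in 10 of 20 alternatives (-1.674 to -2.051).

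Of 17 markers of tubule injury, 0 were higher in kidney than in each organ by edgeR and by DESeq2, and 1 was by limma-voom or at an unadjusted p under 0.05. Over all genes tested the share was 4%, so 0 of 17 does not set these markers apart. Against heart 8 were higher in kidney and 2 lower, against ileum 4 and 8, against liver 4 and 9 and against lung 3 and 6, with 1, CDKN1A, lower than in each (median -2.68). Among all genes tested, 24.6% were higher and 15.1% lower in kidney than in heart, and 22.8% and 19.6% than in ileum. The shares were 24.6% and 18.2% against liver, and 17.4% and 19.2% against lung. SPP1, osteopontin, averaged 386 CPM in kidney and 193 in ileum. Leukocyte genes were lower in kidney than in ileum in 17 of 20, than in liver in 14, than in lung in 19 and than in heart in 2 (median -3.55). Interferon response genes were lower than in ileum in 15 of 25, than in liver in 22, than in lung in 14 and than in heart in 1 (median -1.98). Of 9 fat cell genes 1 was kidney-enriched (median -3.33), against 2.41% of all genes tested. That gene was CIDEA, 2.16 ± 0.56 above heart. The kidney sum of the list was 56.0 to 332 CPM. The part of fat around the kidney in that value was not tested.

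The leading genes of each pair are given with the smallest of their 6 log2 differences in brackets. With liver, BHMT2 and DMGDH, enzymes of methyl group metabolism, averaged 391 and 280.4 CPM in kidney and 244 and 423 in liver, and stood 12.31 and 11.60 log2 units above the nearest of the remaining organs. CYP4A24 (11.59) belongs to a multigene family, whose reads may be split between copies. With ileum, SLC5A12 (7.74) and CUBN (7.55) led. With lung, TMEM213, beside a proton pump subunit among tested genes with a position, averaged 169 CPM in kidney and 31.0 in lung (8.53), and CDH16 975 and 149 (7.07). With heart, ESRRB, an orphan nuclear receptor, averaged 30.9 CPM in kidney and 9.62 in heart (6.66), and KCNJ5, a potassium channel, 55.8 and 382 (5.64).

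Kidney was not always the higher of the pair. Of the 238 genes shared with liver, 34 were higher in kidney than in liver and 126 were lower. Of the 144 shared with ileum, 47 were higher and 39 lower. Of the 164 shared with lung, 36 were higher and 47 lower, and of the 81 shared with heart, 16 were higher and 35 lower.

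**Figure D4:**
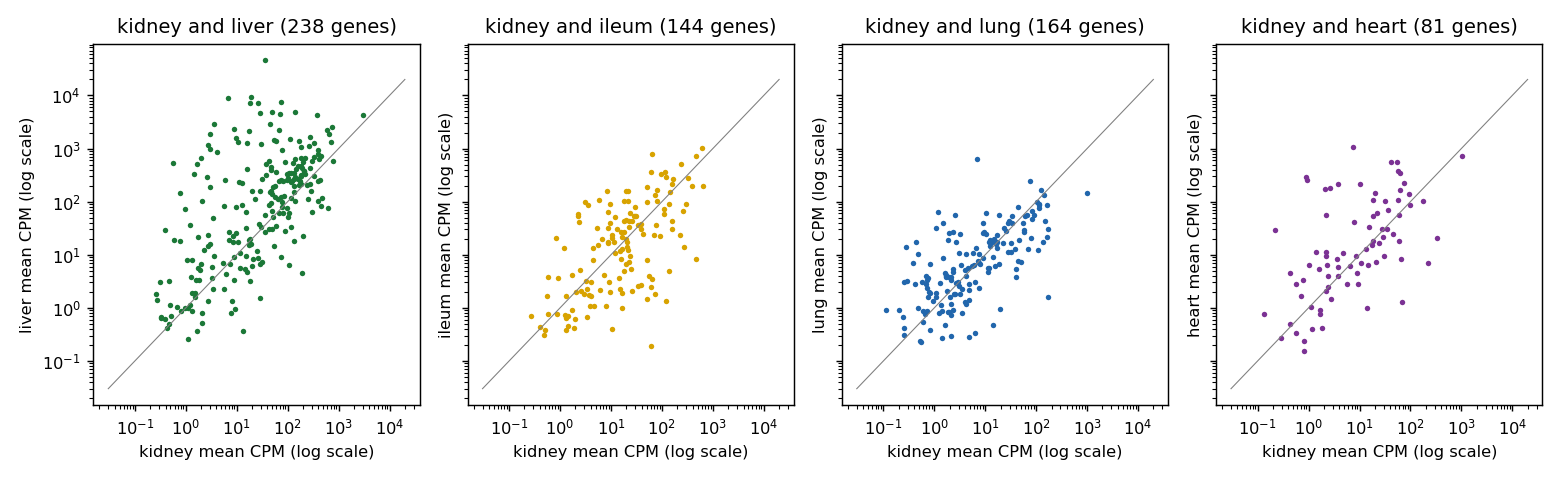
Mean level (CPM, log scale) in kidney against that in the partner organ for the genes shared by kidney and liver, ileum, lung or heart, with 1 point per gene over 8 libraries each and the line of equal level. Points of the liver pair lie under and over the line, with 126 of 238 genes lower in kidney and 34 higher by the 2-fold rule.

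The 8 kidneys were not alike in their segments. The summed level of the medulla list was 1139 CPM in animal 14 and 752 in animal 15, and 303 to 426 in the others. Hearts lay at 768 to 1256 CPM and lungs at 533 to 781, so the sum is not particular to medulla. The 2 members most abundant in kidney varied less among the kidneys than those named next (116.8 ± 28.3 and 93.0 ± 13.1 CPM, mean ± SD). SLC14A1, a urea transporter known from the medulla, was at 136.0 and 39.0 CPM in those 2 kidneys and at 0.494 or less in the other 6. SLC6A12, the betaine transporter of cells in salty surroundings, was at 78.2 and 25.9 CPM there and at most 1.99 in the others. AKR1B1, which makes sorbitol, was at 237 and 134 CPM against 15.3 to 34.8. RANBP3L, a nuclear transport factor, was at 107.3 and 61.4 CPM against 0.967 to 3.39, and its call as kidney-enriched (3.61 ± 0.89 above liver) ended without those 2 kidneys (1.018). The RANBP3L difference was 2.373 without all libraries of animal 14 and 2.378 without those of animal 15. It was 2.403 with organ pairs, 2.875 with limma-voom and 4.837 without the animal term. Of 9 medulla genes tested, 0 were kidney-enriched by edgeR, at an unadjusted p under 0.05, by DESeq2 and by limma-voom (median -0.83, and -1.95 without the 2 kidneys). Over all genes tested the share was 2.41%, so 0 of 9 does not set the list apart. The remaining gene of the list had 5182 counts over the kidneys but did not pass the count filter.

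Some lists of the cortex were low in the same animals. The organic ion list summed to 1271 CPM in animal 14 and 634 in animal 15, and to 1982 to 2740 in the others. The distal convoluted tubule list was at 1015 and 804 CPM against 1863 to 2397, and the intercalated cell list at 506 and 524 against 930 to 1241. The thick ascending limb list was at 8524 and 8935 CPM in animals 14 and 15, 8585 in animal 13, and 2768 to 6502 in the other 5. Urothelium genes summed to 19.0 and 20.7 CPM in animals 14 and 15 and to 4.68 to 6.10 in the others. The list of glomerular endothelium, mesangium and juxtaglomerular cells was at 710 and 593 CPM in animals 14 and 15, and at 391 to 664 in the others. Podocyte genes summed to 722 and 570 CPM, and to 574 to 1006 in the others. How deep each piece of cortex was cut was not tested. Leaving out both kidneys gave 450 kidney-enriched genes and 722 higher than in each organ, and the enriched counts of 11 segment and factor lists moved by at most 2.

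**Figure D5:**
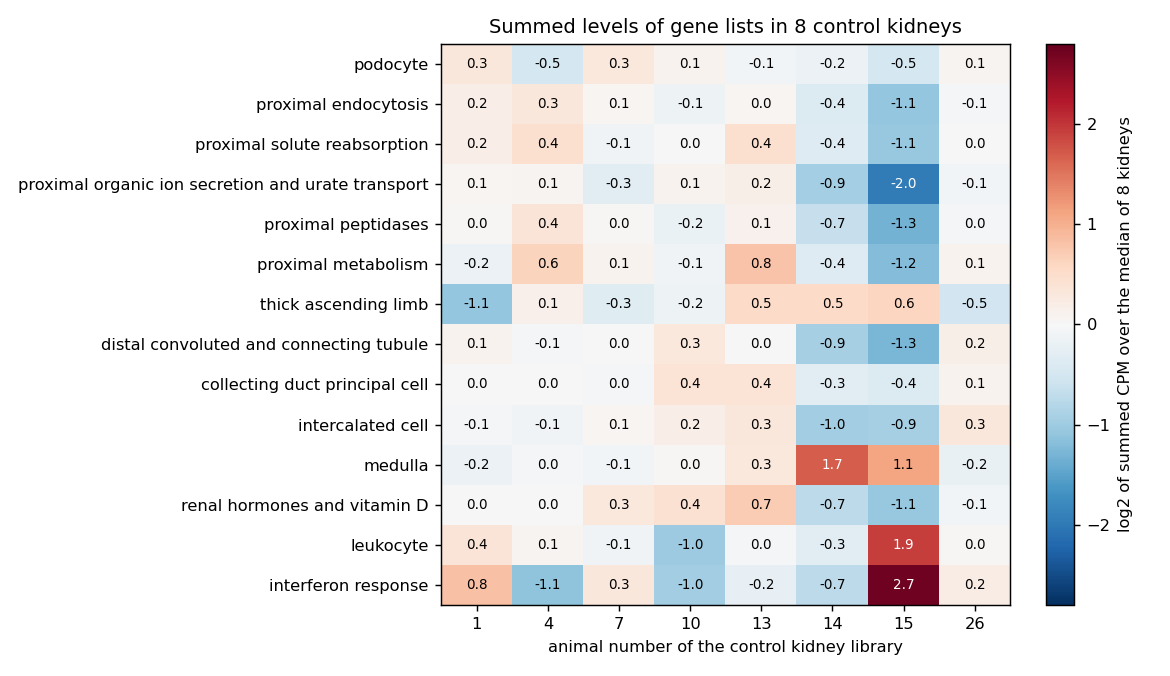
Summed level of each list in each of the 8 control kidneys, as log2 of its ratio to the median of the 8 kidneys, with animals in columns and lists in rows. The kidneys of animals 14 and 15 are above the median in the medulla list and below it in the organic ion, distal convoluted tubule and intercalated cell lists.

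Animal 15 also stood apart in immune genes. Its interferon response list summed to 9377 CPM in kidney, against 647 to 2509 in the other 7, and it had the highest sum of the 8 animals in each of the 5 organs (8513 CPM in heart, 5344 in ileum, 28276 in liver and 14722 in lung). Its leukocyte list summed to 2109 CPM in kidney against 271 to 707. The leukocyte sum of animal 15 was also the highest of the 8 animals in heart (1491 CPM) and ileum (3568), but not in liver or lung. It was 1710 CPM in liver (1703 to 3334 over the 8 animals) and 6701 in lung (4918 to 8960). Among the genes with the widest spread over kidneys were also ADIPOQ, the fat cell hormone adiponectin, at 94.9 CPM in animal 26, 46.0 in animal 1 and 10.2 in animal 10 and at most 0.415 in the other 5, and SFRP2, at 0.206 to 45.4. CYP2C49 (0.784 to 190.2 CPM) and CYP4A21 (1.34 to 216) varied as widely, and as members of multigene families their counts are uncertain.

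Between 4 male and 4 female kidneys, 29 of 16896 genes (0.172%) had an adjusted p under 0.05 by edgeR, against 535 by DESeq2. EIF1AY, a Y-linked gene, ran from 17.9 to 25.2 CPM in males and had 0 counts in females, as did KDM5D, so the sex labels held for all 8 kidneys. UNC93A was at 3.12 ± 0.89 CPM in males and 22.6 ± 10.0 in females (mean ± SD, n = 4 each, edgeR adjusted p = 0.0107), a log2 difference of -2.84 ± 0.32. CKM, muscle creatine kinase, was at 0.933 ± 0.268 and 8.00 ± 3.24 CPM (adjusted p = 0.0122, edgeR), and MYO15B, a myosin, at 9.04 ± 1.33 and 25.4 ± 5.11 (adjusted p = 0.0124, edgeR). In each of these 3 genes every female lay above every male. They were named for their small p in this same test, so that separation adds no support. Of the 29 calls, 8 held in all 13 settings, among them EIF1AY and KDM5D and none of the other named genes. Animals 14 and 15 are both female, and without them 38 genes passed. The count fell to 8 without animal 26, 9 without animal 1 and 17 without animal 7, all males.

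For genes with almost no counts outside kidney, the size of the fitted difference depended on single libraries while the call did not. UMOD stood 14.69 ± 1.02 above liver within animals (adjusted p = 4.72e-11, edgeR), 15.35 without the liver of animal 26, 15.45 without all libraries of that animal and 11.86 without the animal term. SLC22A8 stood at 12.29 ± 0.69, 13.09, 12.98 and 11.63 in the same order. SLC12A1 stood at 12.41 ± 0.78, 13.48 without that liver, 14.18 without animal 26 and 11.55 without kidneys 14 and 15. SLC34A1 rose to 14.06, AQP2 from 12.50 ± 0.44 to 14.12 and SLC22A12 from 11.66 ± 0.61 to 12.33 without that liver. EMX2 moved from 10.04 ± 0.58 to 11.14 without animal 10, CLDN16 reached 10.79 without it, and SIM1 moved from 10.28 ± 0.52 to 11.08 without animal 4.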

How the data were processed

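RNA was sequenced as paired reads (NovaSeq 6000) from Tecan Universal Plus mRNA-Seq libraries, per the labels' protocols. The authors deposited 1 table of expected counts per gene, which are estimated read counts not scaled for depth or length, and these were rounded to whole numbers. bcl2fastq, Trim Galore, cutadapt, STAR, Salmon, MultiQC and Sscrofa11.1 are named, without versions or roles, per the submitters' processing notes, and the annotation release is not given in the sources used here. Of 35670 genes, 17508 had a symbol in the table, 223 took theirs from the gene ID table, and 17939 had an ID only.

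The 40 control libraries were fitted together with edgeR 4.0.16 (R 4.3.3), after filterByExpr by organ (18305 genes kept), TMM scaling, robust glmQLFit with organ and animal as terms, and 2-sided quasi-likelihood F tests. The standard error is the log2 difference divided by the square root of F. Being higher than each organ was tested with the largest of the 4 p-values, and sharing with the largest of 6, each adjusted by Benjamini-Hochberg. The biological coefficient of variation was 0.337. Each animal gave 1 library per organ, and after organ means were removed the kidney correlated with the same animal's other organs at medians of 0.169 to 0.203 (lowest 0.0849). That pairing comes from the animal numbers in the labels. Log2 CPM used a prior count of 2. Sex was tested on the kidneys alone.

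Alternatives were relative log expression factors, scaling without mitochondrial DNA, no filter, no animal term, DESeq2 1.42.0, limma-voom 3.58.1, glmTreat, fits of organ pairs, no heart, and each animal left out. Leaving out the liver of animal 26, kidneys 14 and 15 or the lung of animal 1 was chosen after seeing the data. The procedure was also run on simulated data, with the same spread for all genes and the same profile in every organ apart from genes changed in kidney. Real organs differ far more widely, and sharing between organs was not simulated.

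The members and the 28 gene lists (468 genes, 427 of them tested) were chosen with earlier results of these data known. Named genes follow a rule: the 3 marker genes, the 12 largest and 12 most abundant kidney-enriched genes, up to 4 enriched and 2 other members of each list, the 6 largest falls, 5 shared genes per organ, the 10 most variable and 5 by sex. Of the genes so named or listed, 7 are not reported here. The other list members and neighbours named were chosen after their values were seen. Positions are RefSeq's, by gene ID or symbol, for 13331 genes tested.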

Additional observations from a re-analysis of the deposited data

Results flagged for a closer look

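In 18 of 175 sets of 8 values, for named genes and list sums within 1 organ, 1 library lay far from the other 7, with a gap to the nearest that passed Dixon's critical share of the whole range. Chance flags about 1 in 20 such sets, and the sets share libraries.

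The kidney of animal 15 was the far library in 14 of them. It was low in proximal genes: ABCC2 at 20.9 CPM (others 75.8 to 165), DAB2 at 189 (412 to 542), DMGDH at 103 (221 to 436) and LRP2 at 289 (700 to 1110). It was also low in SLC34A1 at 270 (600 to 1110), SLC5A12 at 56.5 (225 to 443) and SLC5A2 at 23 (80 to 190). ACADM stood at 116 (185 to 279), GPD1 at 21.7 (65.9 to 109), GLIS2 at 61.4 (98 to 126) and KCNJ10 at 34.9 (55.2 to 79). The same kidney was high in C1QC, a complement gene of macrophages, at 472 CPM (55.3 to 144) and in the summed leukocyte list at 2110 (271 to 707), and its sum of nephron transcription factors was 1600 (2120 to 2380).

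The kidney of animal 14 was low in FDXR at 6.66 CPM (9.48 to 12.5). The kidney of animal 13 was high in the summed hepatocyte list at 342 CPM (126 to 170). The liver of animal 26 was high in UMOD, at 10.2 CPM (others at most 0.0363), and in SLC22A8, at 2.23 (at most 0.181).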

How the results depend on the processing

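Of 36 genes named by size, level or spread, each refitted in 20 settings, 696 values kept their call, 23 lost it, 1 gained it and 0 called values turned direction. Below the call, 6 values changed sign: ADIPOQ (-0.914) with limma-voom (2.301), without animal 13 (1.608) and without kidneys 14 and 15 (0.6261), and SLC14A1 (1.655) with organ pairs (-0.0249), without animal 14 (-0.2994) and without kidneys 14 and 15 (-2.343). Of the counts, 296 stayed within 1.5 times of their value. Of the 442 kidney-enriched genes, 226 kept the call in all 20 settings. Testing against the fold itself (glmTreat) left 230 kidney-enriched genes, 440 higher and 18 lower than in each organ, and 15, 64, 124 and 44 shared with heart, ileum, liver and lung. It ended the calls of ATP1B1, CDH16, SOD3, MIOX, CGNL1, RANBP3L and RRM2. Fits of organ pairs left 38 lower genes. Without heart, where 3 organs suffice, 647 were lower and 341 shared with lung. Leaving out each animal gave 424 to 450 kidney-enriched, 653 to 722 higher and 63 to 106 lower genes. Without the replicate block of animal numbers 422 were kidney-enriched, 415 of them the same genes. This block changed 1 named gene besides RRM2, SLC14A1, which passed without it (5.238). DESeq2 called 535 genes between the sexes and no filter 43, and leaving out an animal gave 8 to 37. The cause of these shifts was not tested. Levels under about 0.02 CPM rest on few counts over 8 libraries, such as 7 counts for EMX2 in ileum (0.0153 CPM).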

Other observations

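Several kidney-enriched genes belong to none of the lists and were chosen after their values were seen. CA12, a membrane carbonic anhydrase, averaged 470.4 ± 111.8 CPM (SD, n = 8) and stood 5.82 ± 0.54 log2 units above ileum. ATP12A, a proton and potassium pump known from colon and kidney, averaged 35.1 ± 16 CPM and stood 8.15 ± 0.52 above ileum. CLDN8, a claudin of the distal nephron, averaged 68.7 ± 13.9 CPM and stood 7.53 ± 0.56 above liver. TINAG, an antigen of the tubular basement membrane, averaged 185 ± 66.7 CPM and stood 3.69 ± 0.36 above ileum. TRPM5, a cation channel best known from taste cells, averaged 86.0 ± 67.7 CPM, a spread nearly as wide as its mean, and stood 5.02 ± 0.42 above lung.

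A further 4 kidney-enriched genes were chosen after their values were seen. DLK1, a regulator of differentiation, averaged 78.6 ± 41.9 CPM and stood 4.79 ± 0.63 above heart. CAPN6, a calpain without protease activity, averaged 168 ± 47.8 CPM and stood 9.08 ± 0.45 above lung. NRK, a kinase known from placenta, averaged 68.1 ± 11.9 CPM and stood 5.90 ± 0.39 above heart. SFRP1, a secreted inhibitor of Wnt signals, averaged 236 ± 55.9 CPM and stood 3.16 ± 0.24 above heart. Of the 442 kidney-enriched genes, 103 had an ID only, the foremost of them 13.19 log2 units above its nearest organ at 78.1 CPM.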
